A study of Mus musculus with 6 samples.

Results

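The protein disulfide isomerase family and the oxidase that recharges it were followed through 6 RNA sequencing libraries of ID8, a line derived from ovarian surface epithelium of the mouse and able to grow as tumours. The members were taken by gene symbol: P4hb, Pdia3, Pdia4, Pdia5, Pdia6, Txndc5, Txndc12, Tmx1, Erp44 and Ero1l (also written Ero1a). All 10 were found among the 53465 genes counted, and all 10 were among the 8200 that passed the filter on low counts. The control group, labelled WT, is described as ID8 stably carrying the guide sgNC. The other group, labelled KO, is described as ID8 stably carrying sgNat10, a guide against the gene of the RNA acetyltransferase NAT10, and each group has 3 libraries numbered 4 to 6. The sources used here do not say whether a line is 1 clone or a pool, or whether replicates are separate cultures, so p-values measure the spread between these libraries only.

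Disulfide bonds tie together cysteines of secreted and membrane proteins, and they form in the endoplasmic reticulum (ER). Protein disulfide isomerases carry thioredoxin-like domains that make, break and rearrange these bonds in client proteins, and ERO1 takes the electrons from the isomerase and passes them to oxygen. Many of these genes belong to the unfolded protein response, a programme that raises ER folding capacity when unfolded proteins build up.

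Library totals were 1687466, 2148715 and 1811225 counts in WT replicates 4, 5 and 6. They were 2541273, 2234305 and 3126208 in KO replicates 4, 5 and 6, all above the WT totals, so depth goes with the label. The worth of 1 count was 0.608 CPM (counts scaled to a common library size with TMM) in WT replicate 4 and 0.310 CPM in KO replicate 6. TMM factors ran from 0.940 to 0.985 in WT and from 1.018 to 1.056 in KO-labelled libraries. The gene Gm42418 held 12.4% to 13.9% of counts in WT and 9.32% to 10.1% in KO-labelled libraries, so composition also went with the label. Nat10 itself stood at 102, 64.0 and 169 CPM in WT replicates 4, 5 and 6 and at 123, 56.9 and 138 CPM in KO replicates 4, 5 and 6, so the KO label was not matched by less Nat10 RNA, and directions below are those of the labels. Of 8 markers of ovarian surface epithelium and mesothelium, Krt18 and Krt19 passed the test as lower and Msln as higher in KO-labelled libraries. Krt7 and Cdh1 had no count in KO-labelled libraries and at most 6 and 50 counts in a WT library. Krt8, which did not pass, averaged 198 ± 46.2 CPM under WT and 36.6 ± 39.0 CPM under the KO label (SD, n = 3 each), without overlap. The groups overlapped for Upk3b (155 ± 72.7 and 214 ± 69.3 CPM) and Wt1 (169.9 ± 68.8 and 169.5 ± 78.8 CPM). Summed over the list, these markers stood at 5885 to 6337 CPM in WT and 4179.8 to 4827 CPM in KO-labelled libraries. The 6 leukocyte markers summed to at most 14.5 CPM and the 4 endothelial markers to at most 1.86 CPM in any library. The 5 fibroblast markers, of which Dcn gave most counts, summed to 752 to 779.9 CPM in WT and 967 to 1325 CPM in KO-labelled libraries. Dcn carried that higher sum, whereas Col1a1, the other tested gene of the list, averaged 67.1 ± 21.9 CPM under WT and 6.17 ± 8.77 CPM under the KO label (SD, n = 3 each), without overlap. The part of such shifts in the results below was not tested. In RNA from whole cultures, fewer cells of a kind and less RNA per cell cannot be told apart.

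Among the 10 genes, Pdia4 and Pdia6 stood lower in all 3 KO-labelled libraries than in all 3 WT libraries, while the most abundant members, P4hb and Pdia3, stood at nearly the same level in both groups. The regions upstream of these 4 genes are shown first, because the results turn on the contrast between them. Each is the 250 bases before the RefSeq start site (RefSeq, build GRCm38.p6, the same assembly as mm10), written 5′ to 3′ on the gene's strand. Capitals mark CCAAT, the box bound by NF-Y, and CCACG, the other end of the ER stress response element (ERSE), on either strand. The stretches lie at chr11:120573254-120573503 (minus strand) for P4hb, chr2:121413652-121413901 (plus strand) for Pdia3, chr6:47813513-47813762 (minus strand) for Pdia4 and chr12:17266339-17266588 (plus strand) for Pdia6.
P4hb: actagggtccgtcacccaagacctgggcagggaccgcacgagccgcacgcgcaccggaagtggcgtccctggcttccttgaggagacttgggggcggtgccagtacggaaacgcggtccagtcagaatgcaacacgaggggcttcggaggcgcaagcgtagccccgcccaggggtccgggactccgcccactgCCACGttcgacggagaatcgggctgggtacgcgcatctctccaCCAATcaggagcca
Pdia3: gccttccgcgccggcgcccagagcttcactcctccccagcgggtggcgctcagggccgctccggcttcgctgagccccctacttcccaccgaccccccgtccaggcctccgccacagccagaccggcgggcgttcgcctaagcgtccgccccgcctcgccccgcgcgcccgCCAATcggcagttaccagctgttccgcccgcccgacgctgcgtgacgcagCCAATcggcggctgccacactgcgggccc
Pdia4: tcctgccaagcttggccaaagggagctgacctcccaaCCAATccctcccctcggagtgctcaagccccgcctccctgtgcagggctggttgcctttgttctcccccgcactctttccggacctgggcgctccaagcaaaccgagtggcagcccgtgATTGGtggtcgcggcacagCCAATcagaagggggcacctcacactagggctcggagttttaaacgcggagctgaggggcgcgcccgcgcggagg
Pdia6: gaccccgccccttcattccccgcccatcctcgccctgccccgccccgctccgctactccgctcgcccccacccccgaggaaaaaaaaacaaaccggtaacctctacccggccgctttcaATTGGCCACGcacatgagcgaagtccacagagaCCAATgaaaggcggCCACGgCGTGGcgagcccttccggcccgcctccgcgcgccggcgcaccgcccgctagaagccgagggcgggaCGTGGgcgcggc

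The whole ERSE, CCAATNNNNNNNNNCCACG on either strand, was found in 39 of 32851 RefSeq promoters (0.119%; 250 bases before to 50 after each start). All 10 members matched that table, Ero1l under the name Ero1a, with 13 promoters among them. Of these only the Pdia6 promoter held the whole element, from 98 to 80 bases before its start, with the letters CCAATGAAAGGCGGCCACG. Among 17 other ER chaperone and prolyl isomerase genes in the table, 4 held it, namely Hspa5, Hsp90b1, Dnajc3 and Creld2. The Pdia4 stretch above holds 3 CCAAT boxes but no CCACG before the start, and its single CCACG lies from 36 to 40 bases after the start. P4hb holds both boxes and Pdia3 only CCAAT, in neither case at the ERSE spacing.

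Taken alone, CCACG was present in 9 of the 13 member promoters against 32.8% of all promoters, and CCAAT in 7 of 13 against 37.4%. The 2 listed Erp44 promoters overlap and hold the same boxes, which are therefore counted in both. By gene, 7 of the 10 members held CCACG and 6 held CCAAT. Of the 17 other ER chaperone and prolyl isomerase genes, 15 held CCACG and 12 held CCAAT. The shares over all promoters count promoters and not genes. The element TGACGTGG (UPRE, bound by XBP1 and ATF6, and containing CCACG on its other strand) was found in 0.676% of promoters and in 1 member promoter, the third listed for Txndc5. The C/EBP-ATF element TTGCATCA (0.895% of promoters) and ERSE-II, which is ATTGG and CCACG with any base between them (0.0365%), were found in no member promoter. A match here is a description of letters, and no match says only that the letters are absent from this window.

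**Figure D1:**
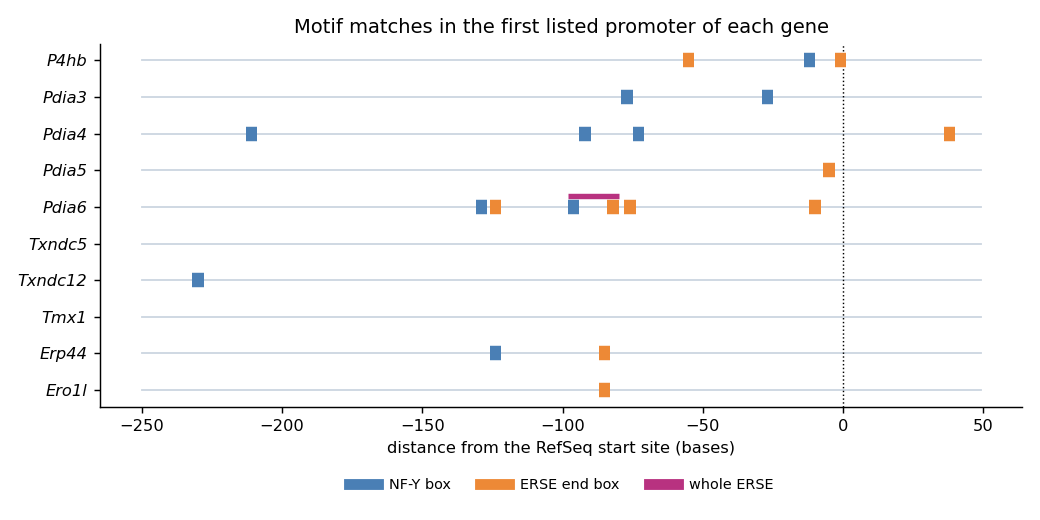
Position of motif matches on either strand, in bases from the RefSeq start site, in the first listed promoter of each member. Blue marks CCAAT (NF-Y box), orange marks CCACG (ERSE end box) and the raised bar marks the whole ERSE, which appears only in Pdia6 from -98 to -80.

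The 4 abundant members made up most of the family's RNA. Per kilobase of exon, which allows levels of different genes to be compared, P4hb stood at 571 ± 36.7 and Pdia3 at 523 ± 59.9 CPM per kilobase in WT libraries (SD, n = 3). Pdia4 followed at 253 ± 83.6 and Pdia6 at 205 ± 41.8 CPM per kilobase. The next were Txndc5 at 27.8 ± 1.92, Tmx1 at 22.1 ± 17.1, Txndc12 at 21.3 ± 3.38 and Erp44 at 20.2 ± 3.12 CPM per kilobase. Ero1l stood at 11.0 ± 7.84 and Pdia5 at 3.94 ± 4.16 CPM per kilobase. Within this order P4hb and Pdia3 did not differ beyond their spread, nor did Pdia4 and Pdia6, nor did Tmx1, with its wide spread, differ from Txndc5, Txndc12 or Erp44. Txndc12 and Erp44 did not differ beyond their spread either, while Txndc5 lay above both in every WT library. In KO-labelled libraries P4hb (532 ± 115) and Pdia3 (473 ± 52.0 CPM per kilobase) were again first, and Pdia6 (105.8 ± 6.94) and Pdia4 (105.3 ± 20.1) were level with each other.

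**Figure D2:**
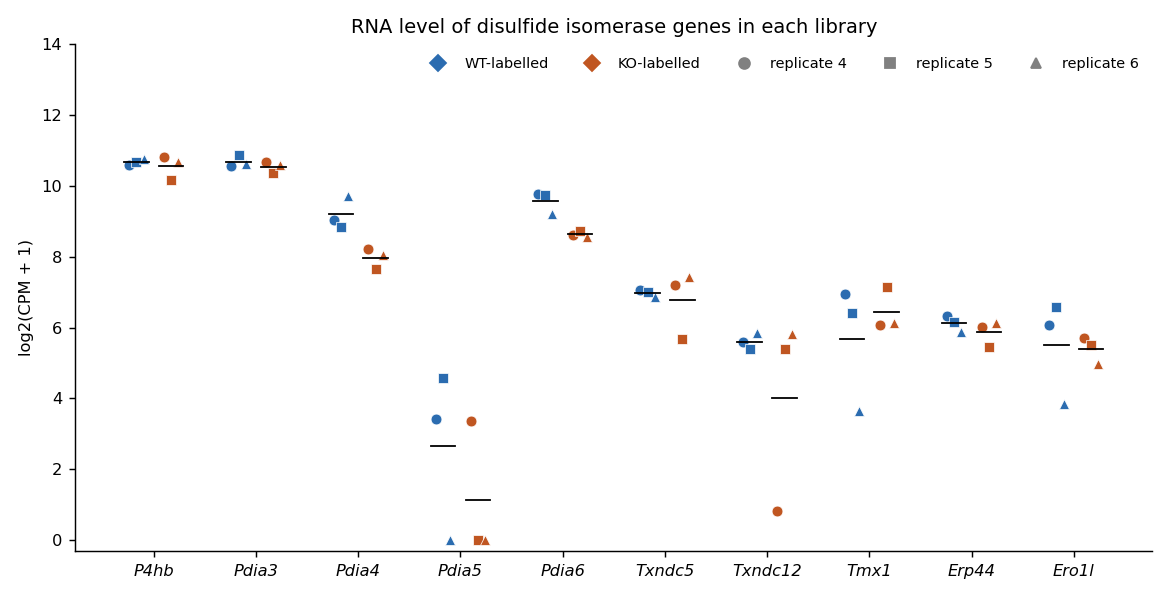
RNA level of the 10 members in each library as log2(CPM + 1), with WT in blue, KO-labelled in orange, a symbol for each replicate number and a bar at the mean of the 3 values. Pdia4 and Pdia6 are the only members whose groups are separate, and Pdia5, Txndc12, Tmx1 and Ero1l each have at least 1 library far below the others.

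None of the 10 members passed an adjusted p of 0.05 in edgeR's quasi-likelihood test over all 8200 genes, where 0.22% of genes were called lower and 0.183% higher. At an unadjusted p under 0.05, 2 of 10 were lower, Pdia4 and Pdia6, against 3.79% of all tested genes, and 0 of 10 were higher, against 2.7%. DESeq2 and limma-voom each called the same 2 genes lower, where DESeq2 called 1.36% of 9357 genes lower and limma-voom 0.268% of 8200. They called 0 members higher, where 1.14% and 0.256% of genes were called higher. The same 2 were the members whose groups did not overlap, against 7.93% of all tested genes in the lower direction (6.94% in the higher). With no filter on low counts edgeR called both (0.328% of genes lower). Neither was called with DESeq2 size factors (0.195%), library totals (0.195%), a stricter filter (0.183%), ribosomal RNA genes left out (0.207%), libraries thinned to equal depth (0.259%) or a threshold of 0.01 (0.11%). Neither was called without WT replicate 4 (0.161%), 5 (0.0342%) or 6 (0.0337%), or without KO replicate 4 (0.102%), 5 (0.146%) or 6 (0.135%). The log2 fold change was below 0 for 9 of 10 members, against 51% of all tested genes, and for 7 of 10 when libraries were scaled by their totals, where P4hb and Txndc5 turned to just above 0. The median over the members was -0.36, against -0.02 over all tested genes, and without WT replicate 5 it was -0.16.

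Pdia4 (ERp72) is a large isomerase with several catalytic domains that sits in a complex with the chaperone BiP. It stood at 527, 457 and 834 CPM in WT replicates 4, 5 and 6, and at 295, 199.96 and 263 CPM in KO replicates 4, 5 and 6. WT replicate 6 was the highest library, and the lowest WT library lay above the highest KO-labelled one. The group means were 606 ± 201 and 253 ± 48.3 CPM (SD, n = 3 per group), 2.40-fold lower in KO-labelled libraries. edgeR put the log2 fold change at -1.26 ± 0.27 (SE; 95% interval -1.84 to -0.69) with an adjusted p of 0.0639, position 41 of 8200 by p. DESeq2 gave an adjusted p of 2.7e-04 and limma-voom 0.0315. Without WT replicate 6 the log2 fold change was -0.96, and the adjusted p lay between 0.0755 and 0.416 over the fits that left out 1 library. Pdia4 lies on chromosome 6 from 47796141 to 47813430 in mm10.

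Pdia6 (P5) also works with BiP, and it has been reported to attenuate signalling of the unfolded protein response sensors. Its levels were 867, 847 and 586 CPM in WT replicates 4, 5 and 6, and 394, 423 and 372 CPM in KO replicates 4, 5 and 6. The KO-labelled libraries lay close together and all below WT replicate 6, the lowest of its group. The means were 767 ± 157 and 396 ± 26.0 CPM (SD, n = 3 per group), 1.94-fold lower in KO-labelled libraries. edgeR put the log2 fold change at -0.95 ± 0.22 (SE; 95% interval -1.41 to -0.49) with an adjusted p of 0.0742, position 58 by p. DESeq2 gave an adjusted p of 2.6e-04 and limma-voom 0.0373. With 1 library left out the log2 fold change ran from -1.11 to -0.85 and the adjusted p from 0.105 to 0.525. Pdia6 lies on chromosome 12 from 17266545 to 17284770.

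P4hb, the founding isomerase and also the beta subunit of the collagen prolyl hydroxylases, stood at 1526, 1637 and 1736 CPM in WT replicates 4, 5 and 6. In KO replicates 4, 5 and 6 it stood at 1780.5, 1152 and 1636.5 CPM. KO replicate 4 was the highest of all 6 libraries and KO replicate 5 the lowest, so the groups overlapped. edgeR put the log2 fold change at -0.10 ± 0.18 (SE; 95% interval -0.49 to 0.29), and at 0.07 without KO replicate 5. The interval leaves out a fall of the size estimated for Pdia4 or Pdia6. P4hb lies on chromosome 11 from 120560298 to 120573253.

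Pdia3 (ERp57) serves glycoproteins held by calnexin and calreticulin and takes part in loading of MHC class I. It stood at 1509.7, 1857 and 1559 CPM in WT replicates 4, 5 and 6, and at 1621, 1303 and 1526 CPM in KO replicates 4, 5 and 6. WT replicate 5 was highest and KO replicate 5 lowest, with the others between them. edgeR put the log2 fold change at -0.15 ± 0.16 (SE; 95% interval -0.50 to 0.21) with an adjusted p of 0.99996. Pdia3 lies on chromosome 2 from 121413775 to 121438687.

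**Figure D3:**
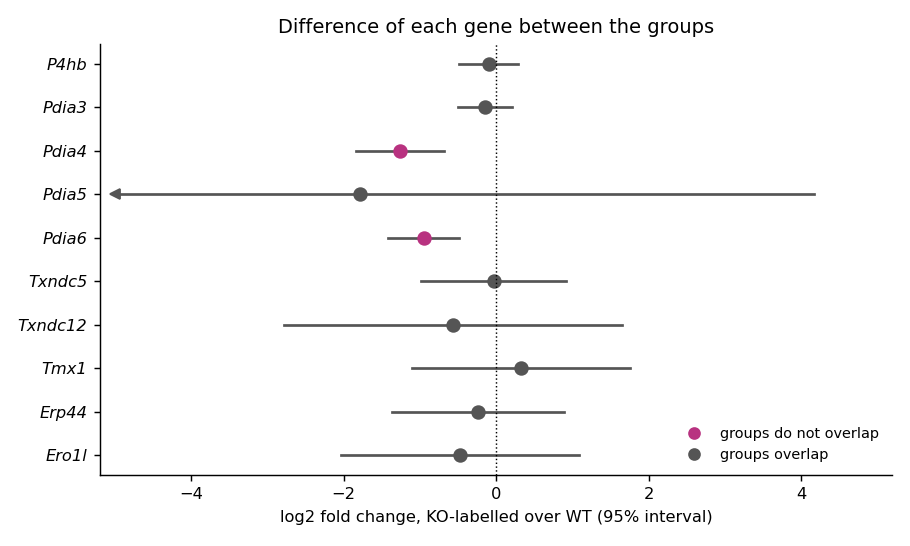
Log2 fold change of each member between KO-labelled and WT libraries with its 95% interval from edgeR, where an arrowhead marks an interval that runs past the axis. The intervals of Pdia4 (-1.84 to -0.69) and Pdia6 (-1.41 to -0.49) lie below 0, and those of the other 8 members include 0.

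Ratios within a library do not depend on how libraries are scaled, and they were computed for the 6 pairs among the members with a mean of at least 200 CPM. In WT replicates 4, 5 and 6 the log2 ratio of P4hb to Pdia4 was 1.53, 1.84 and 1.06. KO replicates 4, 5 and 6 gave 2.59, 2.53 and 2.64. The groups did not overlap, and the mean was 1.11 higher in KO-labelled libraries (exact permutation test, two-sided p = 0.1, 0.2 adjusted over 6 pairs). The ratio of Pdia3 to Pdia4 was 1.09 higher and that of Pdia3 to Pdia6 0.79 higher, each without overlap and each with an exact permutation p of 0.1. This is the smallest p that 3 against 3 libraries allow, so the design cannot pass 0.05 for such a ratio. The ratio of P4hb to Pdia6 was 0.81 higher on average, but KO replicate 5 (1.44) lay below WT replicate 6 (1.57), with an exact permutation p of 0.2. P4hb to Pdia3 differed by 0.02 (exact permutation p = 0.9) and Pdia4 to Pdia6 by -0.30 (exact permutation p = 0.8), both with overlapping groups. These pairs were chosen after the levels had been seen.

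The makeup of the family's RNA followed from these values. Of the summed level per exon length, Pdia4 held 15.2% ± 4.90 in WT and 7.99% ± 0.471 in KO-labelled libraries, and Pdia6 held 12.4% ± 2.73 and 8.22% ± 1.73 (SD, n = 3 per group). The share of P4hb was 34.4% ± 1.45 and 40.3% ± 3.43, and that of Pdia3 31.5% ± 2.87 and 36.1% ± 1.19. Summed over all 10 genes the level was 4887, 5239.6 and 4969.8 CPM in WT replicates 4, 5 and 6, and 4425, 3396 and 4193 CPM in KO replicates 4, 5 and 6. With Pdia4 and Pdia6 left out, the sum was 3492.5, 3935 and 3549 CPM in WT and 3737, 2772 and 3559 CPM in KO-labelled libraries. The groups were separate in the first sum and overlapped in the second. Pdia4 and Pdia6 were left out because their own groups were separate, so the second sum describes the rest and tests nothing.

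**Figure D4:**
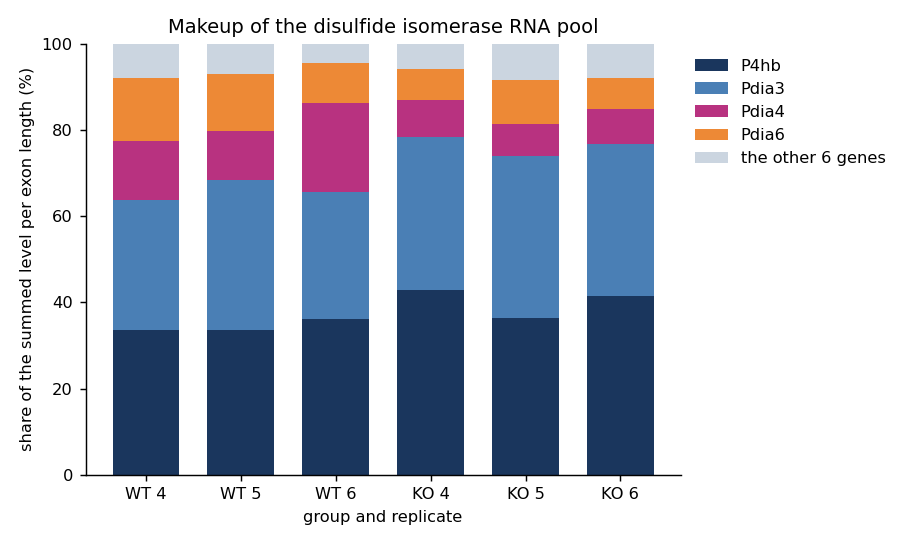
Share of each of the 4 abundant members, and of the other 6 together, in the family's summed level per exon length, as a stacked bar for each library. The Pdia4 segment is narrower in each KO-labelled library (mean 7.99%) than in any WT library (mean 15.2%).

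The other isomerases were lower in abundance, and their groups overlapped. Txndc5 (ERp46), an isomerase that introduces disulfides rapidly, stood at 133, 127 and 116 CPM in WT replicates 4, 5 and 6 and at 145, 50.1 and 172 CPM in KO replicates 4, 5 and 6. KO replicate 5 was the lowest and KO replicate 6 the highest of the 6, and the log2 fold change of -0.03 ± 0.44 (SE) became 0.35 without KO replicate 5. Exons of genes on the other strand overlap 11.9% of the Txndc5 exons, and without a stated strand setting those reads cannot be told apart. Txndc12 (ERp18), a small ER thioredoxin, stood at 46.8, 41.0 and 56.1 CPM in WT, and at 41.1 and 55.2 CPM in KO replicates 5 and 6. KO replicate 4 had 2 counts of Txndc12, or 0.780 CPM with a 95% Poisson interval from 0.0945 to 2.82 CPM, which covers counting error only. The difference rested on that library: the log2 fold change was -0.57 ± 1.04 (SE) with it and 0.02 without it.

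Pdia5, a less studied isomerase, had 16, 46 and 0 counts in WT replicates 4, 5 and 6. Among the KO-labelled libraries replicate 4 had 24 counts and the others 0. At that depth no difference was detectable, with a 95% interval from -7.75 to 4.17 on the log2 scale.

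Tmx1, a membrane-bound thioredoxin-like protein that acts as a reductase, stood at 122, 84.9 and 11.6 CPM in WT replicates 4, 5 and 6. In KO replicates 4, 5 and 6 it stood at 65.9, 139 and 69.2 CPM. WT replicate 6 was far below the other 5 libraries, and without it the log2 fold change went from 0.33 ± 0.67 (SE) to -0.18. Tmx1 was the only member with an estimate above 0, and also turned below 0 (-0.10) without KO replicate 5. The 3 WT values had a coefficient of variation of 77.2%, where counting error alone would give 14.2%.

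Erp44, which retrieves ERO1 and unassembled clients from the early Golgi, stood at 79.0, 69.95 and 57.8 CPM in WT and 63.6, 42.4 and 69.2 CPM in KO-labelled libraries. Its values interleaved, and edgeR put the log2 fold change at -0.24 ± 0.53 (SE; 95% interval -1.37 to 0.89). Ero1l, the oxidase that drives the cycle, stood at 66.3, 94.9 and 13.3 CPM in WT replicates 4, 5 and 6 and at 50.7, 44.5 and 30.4 CPM in KO replicates 4, 5 and 6. WT replicate 6 was again the lowest library and WT replicate 5 the highest, so the KO-labelled values lay inside the WT range. The log2 fold change of -0.47 ± 0.73 (SE) was 0.07 without WT replicate 5. The edgeR adjusted p was 0.99996 for each of Txndc5, Txndc12, Pdia5, Tmx1, Erp44 and Ero1l, with n = 3 per group.

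The spread between replicates was beyond counting error for most members. The coefficient of variation within a group ran from 6.43% (P4hb, WT) to 33.1% (Pdia4, WT) for the 4 abundant members, where counting error gives 1.60% to 3.93%. For Txndc5 it was 6.89% in WT, beside 6.71% from counting, but 52.3% in KO-labelled libraries.

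Other genes of the pathway were read from lists of related genes in the same fit. Of 10 tested other thioredoxin-fold proteins of the ER, none passed in edgeR in either direction, where 0.402% of all genes did, none had an unadjusted p under 0.05, and DESeq2 and limma-voom called none. Their median log2 fold change was 0.14. The 4 with the smallest p were Selenom (0.96 ± 0.70, log2 fold change and SE), Tmx3 (-0.46 ± 0.39), Txndc15 (0.61 ± 0.55) and Erp29 (-0.71 ± 1.07). Exons of other genes overlap 26.4% of the Erp29 exons. Of 5 tested other enzymes of ER thiol oxidation, none passed in edgeR, at an unadjusted p under 0.05, in DESeq2 or in limma-voom, and the median was 0.50. Prdx4, the peroxiredoxin that uses peroxide made by ERO1, stood at 127 ± 34.4 and 179 ± 77.5 CPM (SD, n = 3 per group). The peroxidase Gpx8 stood at 28.3 ± 17.6 and 54.7 ± 15.6 CPM, Selenon at 15.9 ± 13.0 and 35.7 ± 20.5 CPM and Qsox1, an oxidase that forms disulfides by itself, at 35.8 ± 31.0 and 27.2 ± 23.7 CPM.

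The partners of Pdia3 differed among themselves in estimate. Calr, the soluble lectin chaperone calreticulin, stood at 3303, 3067 and 2699 CPM in WT replicates 4, 5 and 6, and at 2008, 1533 and 2041 CPM in KO replicates 4, 5 and 6. All KO-labelled values lay below all WT values, with a log2 fold change of -0.70 ± 0.16 (SE), an edgeR adjusted p of 0.0742 and a DESeq2 adjusted p of 0.00117. Canx, its membrane-bound relative calnexin, stood at 2192, 1583 and 1197 CPM in WT and 1526, 1723 and 1494 CPM in KO-labelled libraries (log2 fold change -0.07 ± 0.20, SE). Whether Calr and Canx differ from each other was not tested. Of 10 tested genes of the calnexin cycle and peptide loading, edgeR called none. DESeq2 and limma-voom each called 1 (Calr, lower), where they called 1.36% and 0.268% of their tested genes lower. At an unadjusted p under 0.05, 1 was lower (Calr), against 3.79% of all tested genes. The other 3 with the smallest p were Tapbp (0.54 ± 0.33, log2 fold change and SE), Prkcsh (-0.51 ± 0.32) and Mogs (-1.25 ± 1.59), and annotated exons of other genes overlap 29.0% of Tapbp.

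Of 21 other tested ER chaperones and prolyl isomerases, 3 passed in edgeR, all lower, namely Hspa5 (BiP), Hsp90b1 (GRP94) and Hyou1, where 0.22% of all tested genes were called lower. An estimate below 0 was found for 13 of the 21, against 51% of all tested genes. Hspa5, with which PDIA4 and PDIA6 associate, stood at 4109, 4183 and 4573 CPM in WT replicates 4, 5 and 6 and at 2286, 2059 and 2188 CPM in KO replicates 4, 5 and 6. Its log2 fold change of -0.98 ± 0.13 (SE; edgeR adjusted p = 0.00404) stands beside -1.26 for Pdia4 and -0.95 for Pdia6. Hyou1 had a log2 fold change of -1.23 ± 0.25, Hsp90b1 -0.82 ± 0.14 and Manf -1.09 ± 0.23 (edgeR adjusted p = 0.0632). The list's median was -0.33, and DESeq2 and limma-voom each called 4, all lower, where they called 1.36% and 0.268% of their tested genes lower. With 1 library left out, 1 gene of all companion lists passed in place of 3, and 0 without WT replicate 5 or without WT replicate 6. Exons of other genes overlap 15.7% of the Hsp90b1 exons.

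Among the sensors and transcription factors of the unfolded protein response none of 13 tested genes passed in edgeR, and limma-voom called none. At an unadjusted p under 0.05, 1 was lower and 1 higher, against 3.79% and 2.7% of all tested genes. DESeq2 called Atf4 lower and Creb3 higher, where it called 1.36% of its tested genes lower and 1.14% higher. Atf4, the factor made under the PERK arm, stood at 464, 362 and 317 CPM in WT replicates 4, 5 and 6 and 176, 188 and 172 CPM in KO replicates 4, 5 and 6 (edgeR adjusted p = 0.11). Creb3, a membrane-bound factor of the ER and Golgi, stood at 181, 169.9 and 116 CPM in WT and 416, 317 and 414 CPM in KO-labelled libraries (edgeR adjusted p = 0.0657), and exons of other genes overlap 20.8% of its exons. Xbp1 and Atf6, the factors tied to chaperone induction, had overlapping groups, with log2 fold changes of -0.66 ± 0.36 and 0.53 ± 0.40 (SE). Mbtps2, a protease that releases ATF6, had -1.09 ± 0.81, and exons of other genes overlap 28.4% of its exons. The list's median was 0.13.

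Of 16 tested genes of ER-associated degradation neither edgeR nor limma-voom called any. At an unadjusted p under 0.05, 1 was lower, against 3.79% of all tested genes. DESeq2 called 1 lower, the segregase Vcp (adjusted p = 0.0333, beside 0.346 in edgeR), where it called 1.36% of its tested genes lower. Vcp stood at 483 ± 95.9 and 259.6 ± 83.0 CPM (SD, n = 3 in each group). Selenos had a log2 fold change of -1.19 ± 0.95 (SE) and Derl2 of 1.72 ± 1.40, and the median of the list was -0.35. Of 7 tested partners of P4HB and ERP44 and KDEL receptors, none passed in any of the 3 tests or at an unadjusted p under 0.05, and the median was -0.03. Those with the smallest p were Sumf1 (1.04 ± 0.72, log2 fold change and SE), Lman1 (-0.51 ± 0.37), the KDEL receptor Kdelr2 (-0.46 ± 0.35) and P4ha2 (0.77 ± 0.74), a collagen prolyl hydroxylase alpha subunit that pairs with P4HB.

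**Figure D5:**
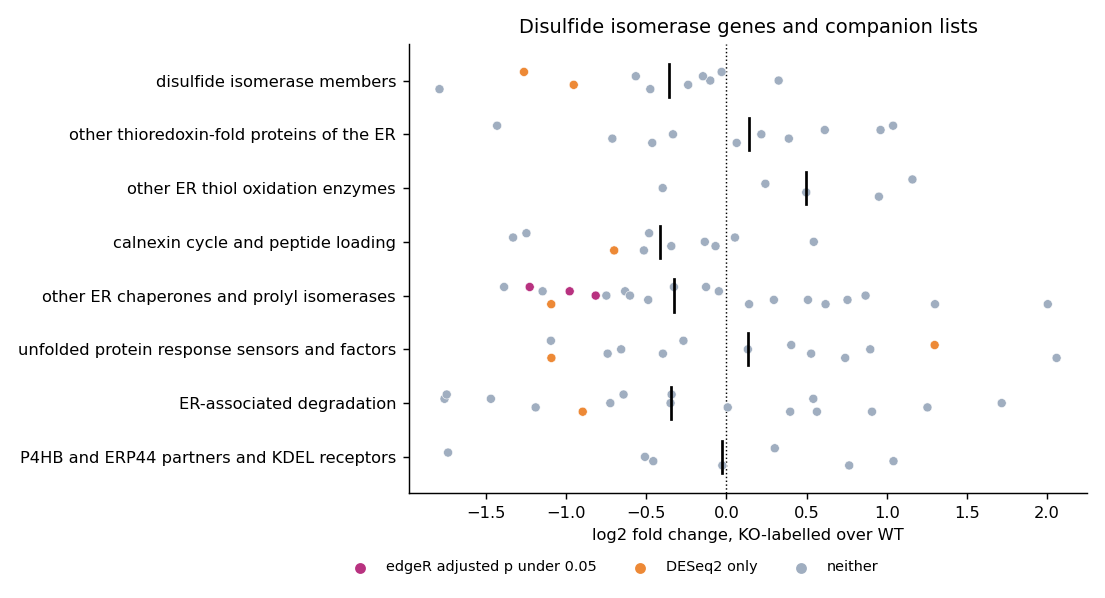
Log2 fold change of every tested gene in the isomerase family and in 7 lists of related genes, with a bar at each list's median. Coloured points are genes past an adjusted p of 0.05 in edgeR, or in DESeq2 alone, and Pdia4 (-1.26) and Pdia6 (-0.95) are among the latter.

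The genes with profiles most like that of P4hb were ranked by the Euclidean distance between centred log2 CPM profiles over the 6 libraries, among 4569 other genes whose average log2 CPM was 5 or more. The nearest were Smarcb1 (distance 0.154), Crip2 (0.169), Rack1 (0.196), Hmgcs1 (0.203) and Glg1 (0.231). Pdia3 came at position 26, Erp44 at 115, Txndc5 at 885, Pdia6 at 1713 and Pdia4 at 2168. Ero1l (3533), Tmx1 (4003) and Txndc12 (4243) were the farthest of the members, and Pdia5 was too low to be ranked. The order describes these 6 libraries only, which differ in depth and scaling, and those differences enter every profile compared.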

How the data were processed

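Reads of poly(A)-selected RNA were counted per gene by the authors, and the deposited values are raw counts with 1 column per library. Per the submitters' processing notes, fastp, HISAT2 2.0.5 and featureCounts 1.5.0-p3 were used with build mm10. The sources used here do not state settings, strand mode or duplicate removal. Columns were matched to replicates through the labels, and 0 columns belonged to other samples. Symbols, positions and exon lengths came from GENCODE M21.

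filterByExpr (minimum count 10) kept 8200 genes, which were fitted with edgeR 4.0.16 (R 4.3.3, TMM, robust quasi-likelihood, group as the only term, two-sided, Benjamini-Hochberg over all tested genes, threshold 0.05). DESeq2 1.42.0, limma-voom (limma 3.58.1) and other settings were alternatives. Likeness used log2 CPM with a prior count of 2. The edgeR script was tested on simulated data. Replicate libraries differed beyond sampling noise, so all 6 were kept apart. Depth sets 1 count at 0.310 to 0.608 CPM.

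The members and lists were chosen with earlier results of these data known. Genes named were all members, Nat10, and from each list the called genes and up to 4 with the smallest p. A gene that this rule names is not reported here. Also named were the 5 genes most like P4hb and called genes that start within 5 Mb of a member. Canx, Atf6, Col1a1 and, in the motif search, Dnajc3 and Creld2 fall outside this rule, as do Msln, Krt7, Krt18, Krt19, Cdh1, Dcn, Coa7, Kti12, Tln1, Clta, Rusc2, Tra2a and Tmem176a, and were chosen after their values were seen. The same holds for Krt8, Upk3b, Wt1 and Gm42418.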

Additional observations from a re-analysis of the deposited data

How the results depend on the processing

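Pdia4 and Pdia6 kept a log2 fold change below 0 under every setting run, from -1.43 to -0.96 and from -1.11 to -0.84. The number of members called lower was 2 under DESeq2, 2 under limma-voom and 2 with no filter on low counts, in place of 0, and was 0 in every fit with 1 library left out. The cause was not tested. Genes called in all went from 33 to 234 under DESeq2, 91 with no filter, 16 at an adjusted p of 0.01 and 6 to 29 with 1 library left out (6 without WT replicate 5 or without WT replicate 6). Genes called in the companion lists went from 3 to 8, 5 and 6 under DESeq2, limma-voom and no filter, 1 at the threshold of 0.01, and 0 to 1 with 1 library left out. The members' median ran from -0.40 to -0.16 over the fits with 1 library left out. Library totals moved the median of all genes to 0.09, from -0.02. Under them P4hb stood at 0.0053 and Txndc5 at 0.073. Leaving out 1 library turned the sign of P4hb (-0.22 to 0.073 over these fits), Txndc5 (-0.36 to 0.35), Txndc12 (-1.20 to 0.015), Tmx1 (-0.18 to 0.92) and Ero1l (-0.95 to 0.071). It also turned the difference in the log2 ratio of P4hb to Pdia3 (-0.066 to 0.12) and of Pdia4 to Pdia6 (-0.56 to 0.14). None of these genes passed a test in any setting run. The ratios were tested only with all libraries, where the exact permutation test can give no p below 0.1.

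With the replicate number as a block, 1 member was called lower, Pdia4 (adjusted p = 0.0413), and Pdia6 was not (0.118), while 38 genes were called in all. The sources used here do not say that a shared number marks a shared batch, so the numbers were not taken as pairs. Same-numbered libraries did not deviate together (correlations of -0.017, -0.0026 and -0.0067). Whether they share a batch cannot be told from these values.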

Other observations

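Txndc12 and Erp44 lie on chromosome 4, from 108834601 to 108862127 and from 48193323 to 48279558. Of 33 tested genes that start within 5 Mb of Txndc12, 22 had an estimate below 0, against 51% of all tested genes. Their median log2 fold change was -0.45. edgeR and limma-voom called none of them, and 4 had an unadjusted p under 0.05, all lower, against 3.79% of all tested genes. DESeq2 called 2, Kti12 and Coa7, both lower, where it called 1.36% of its tested genes lower. In 7 of the 33 the KO-labelled values all lay under the WT values, against 7.93% of all genes tested. In 1 they all lay above, against 6.94%. Kti12 starts at 108847785, inside the span of Txndc12, and had 31, 98 and 54 counts in WT replicates 4, 5 and 6 and none in the KO-labelled libraries (edgeR adjusted p = 0.304, DESeq2 0.000327). Coa7, 0.51 Mb before Txndc12, had 27, 67 and 22 counts in WT and none in KO-labelled libraries (edgeR adjusted p = 0.51). Txndc12 itself had 2 counts in KO replicate 4 but stood at 41.1 and 55.2 CPM in KO replicates 5 and 6, beside 41.0 to 56.1 CPM in WT. Of 41 tested genes around Erp44, 20 had an estimate below 0, with a median of 0.09. In 7 of them the KO-labelled values all lay above the WT values, against 6.94% of all genes tested, and in 1 all lay below. edgeR called none of these 41, and 4 had an unadjusted p under 0.05, all higher, against 2.7% of all tested genes. In limma-voom 1 was called (Tln1, higher), where 0.256% of genes were called higher. DESeq2 called 4, namely Creb3, Tln1, Clta and Rusc2, all higher, where it called 1.14% of its tested genes higher. Creb3, given above among the factors of the unfolded protein response, thus lies among several genes with higher estimates.

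Of 63 tested genes that start within 5 Mb of Pdia3, edgeR called 1, B2m, and of 28 around Pdia4 it called 1, Gpnmb. Both were higher in KO-labelled libraries, where 0.183% of all tested genes were called higher. B2m, part of the MHC class I complex that PDIA3 helps to load, averaged 329 CPM under WT and 908 CPM under the KO label (log2 fold change 1.47 ± 0.20, SE; edgeR adjusted p = 0.00407). Around Pdia3 the median of 63 genes was 0.099, with 6 lower and 5 higher without overlap of values, against 7.93% and 6.94% of all tested genes. Around Pdia4 the median of 28 genes was 2.5e-04, with 4 lower and 2 higher without overlap of values, against 7.93% and 6.94% of all tested genes. DESeq2 called 3, Gpnmb higher and Tra2a and Tmem176a lower, where it called 1.14% of its tested genes higher and 1.36% lower. Around Pdia6 the median of 16 genes was 0.17, with 3 lower and 1 higher without overlap, against the same 7.93% and 6.94%.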
